A study of Callithrix jacchus with 4 samples.

Results

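The 9 transcripts described here are TMEM88B, KLK6, EVI2A, TMEM125, ERMN, OPALIN, GPR37, TSPAN2 and TF, genes that are enriched in oligodendrocytes but lie outside the classic proteins of the myelin sheath. They were taken by symbol from a table of 35205 genes, and all 9 had a row. The choice was made with the counts in view: the genes were selected on their difference between mutant and wild-type libraries, most because they were lower in the mutants and GPR37 and TSPAN2 because they were not. Their group difference is therefore a description, given with no test. The counts come from poly(A)-selected brain RNA of the common marmoset, Callithrix jacchus, taken at postnatal day 5. There were 2 wild-type libraries and 2 libraries from FMR1 mutants made with CRISPR/Cas9. FMR1 encodes FMRP, the RNA-binding protein lost in fragile X syndrome. The design text names the forebrain, with cortex, striatum and hippocampus among its parts, whereas each library is labelled only as brain. The labels do not give the induced mutation, the sex, the litter or the region of a library, nor do they say that each library came from a separate animal, so the spread between replicates may be technical.

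Oligodendrocytes arise from dividing precursors, pass through a committed stage and then switch on a large set of genes as they wrap axons in myelin. The best known products of that set, such as MBP, build the sheath. Many others serve the cell that carries the sheath: they shape its cytoskeleton, sit in the loops beside the node, cleave extracellular proteins, carry iron or receive signals. In primates much of this maturation takes place after birth, and it starts at different times in different brain regions.

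Total counts were between 12331639 and 13455702 per library, so 1 CPM (the count scaled to 1000000 per library) corresponded to 12.3 to 13.5 counts. Of the 9 transcripts, 8 reached the low-count filter in all 4 libraries. EVI2A reached it in the 2 wild-type libraries alone, so it was kept through the group in which it was high. FMR1 itself was counted 1144 and 966 times in wild-type and 1062 and 1603 times in mutant libraries, replicate 1 first, with overlapping groups. Its log2 fold change in mutant over wild-type libraries was 0.28 (SE 0.15, adjusted p = 0.445). Wild-type replicate 1 stood apart in thalamic markers. Its 7 markers summed to 279 CPM, against 112 CPM in wild-type replicate 2 and 119 and 126 CPM in mutant replicates 1 and 2, and TCF7L2 was counted 1272 times there against 139, 118 and 121. Differences are given below also without that library. Hindbrain genes were close to absent, with 7 of 10 at 0 in all libraries and none above 3 counts. No transcript lengths were used, so levels are compared between libraries, and a count is set beside that of another gene only for its counting error.

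OPALIN and ERMN are products of mature oligodendrocytes that lie in the cytoplasm-filled parts of the sheath rather than in its compact layers. OPALIN, a transmembrane glycoprotein of the paranodal loops also called TMEM10, was counted 214 and 181 times in wild-type and 73 and 70 times in mutant libraries, replicate 1 first here and below. Both mutant libraries were thus well below both wild-type libraries, and the replicates of a group lay close together. The wild-type mean was 15.4 ± 0.995 CPM (SD, n = 2) and the mutant mean 5.38 ± 0.268 CPM (SD, n = 2), a log2 fold change of -1.52 (SE 0.23, 95% interval -1.98 to -1.06). ERMN, an actin-binding protein of the late oligodendrocyte, was counted 211 and 244 times in the wild-type libraries and 67 times in each mutant library. It was the more variable of the pair among wild-type libraries and almost identical between the mutants. Its mean was 17.9 ± 2.79 CPM (SD, n = 2) against 5.04 ± 0.102 CPM (SD, n = 2), a log2 fold change of -1.82 (SE 0.22, 95% interval -2.28 to -1.37).

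**Figure D1:**
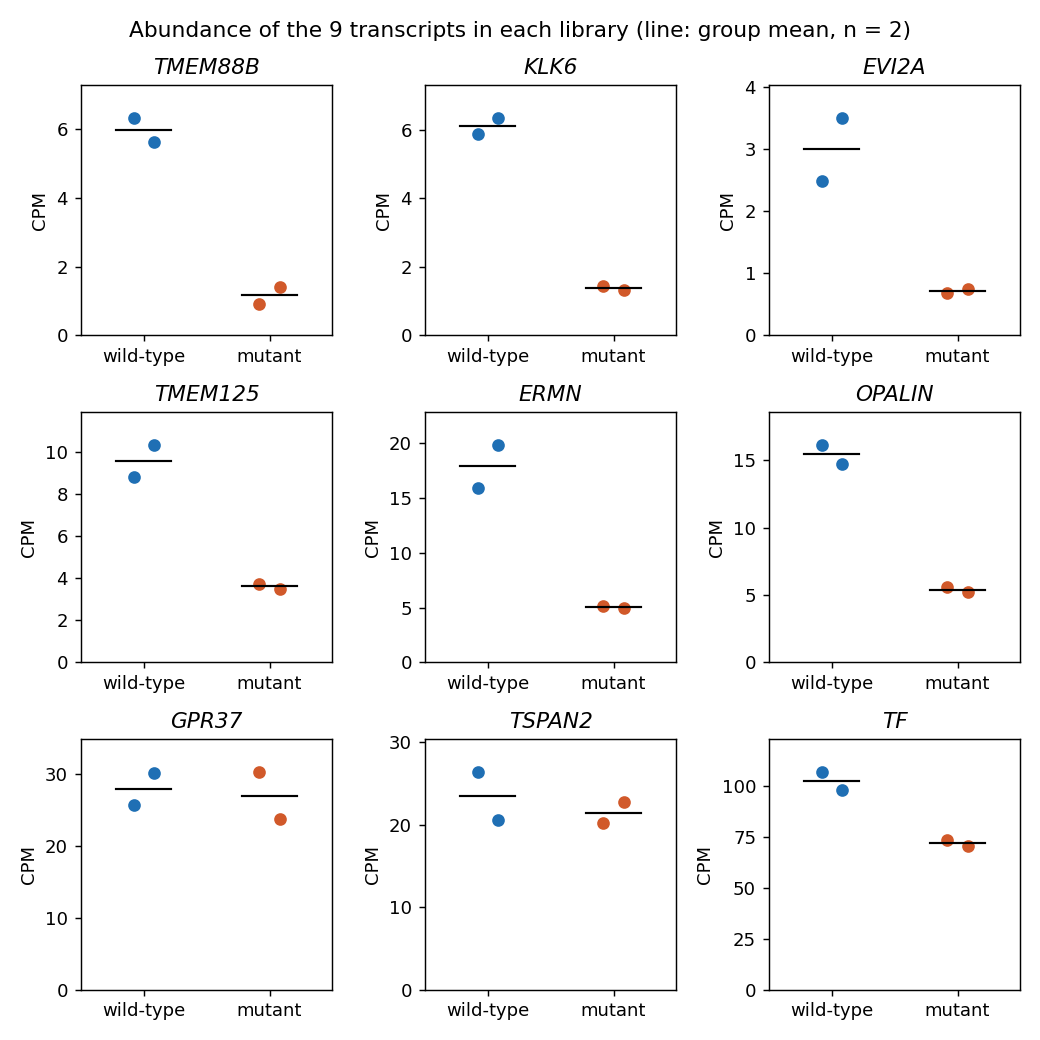
Abundance in CPM (vertical axes, each starting at 0) of the 9 transcripts in the 2 wild-type (blue) and 2 mutant (orange) libraries, each point 1 library and each line a group mean. In 7 panels both mutant points lie below both wild-type points, and in the panels of GPR37 and TSPAN2 the groups overlap.

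TMEM88B, TMEM125 and EVI2A are membrane proteins of little described function in oligodendrocytes. TMEM88B, a relative of TMEM88, which binds the Wnt signalling protein Dishevelled, was counted 84 and 69 times in wild-type and 12 and 19 times in mutant libraries. With all 4 libraries it had the greatest difference of the 9, though EVI2A differed more without wild-type replicate 1 (-2.28 against -2.26) and KLK6 without mutant replicate 1 (-2.19 against -2.08). Its means were 5.98 ± 0.508 CPM (SD, n = 2) and 1.16 ± 0.349 CPM (SD, n = 2), or 5.14-fold more in wild-type. Its log2 fold change was -2.35 (SE 0.37, 95% interval -3.11 to -1.59), and 20 of the 16956 genes tested had a lower one. TMEM125 was counted 117 and 127 times in wild-type and 49 and 47 times in mutant libraries. The groups were clearly separated for this gene as well, at 9.58 ± 1.07 CPM (SD, n = 2) against 3.61 ± 0.179 CPM (SD, n = 2), with a log2 fold change of -1.40 (SE 0.27). EVI2A had the fewest counts of the 9 and so the greatest counting error, with 33 and 43 counts in wild-type and 9 and 10 counts in mutant libraries. Its log2 fold change of -2.05 had the widest interval of the 9 (SE 0.49, 95% interval -3.04 to -1.06).

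KLK6, a secreted trypsin-like protease of the kallikrein family that oligodendrocytes make in quantity, was counted 78 times in each wild-type library and 19 and 18 times in the mutant libraries. The replicates agreed closely in both groups, at 6.12 ± 0.330 CPM (SD, n = 2) and 1.39 ± 0.0813 CPM (SD, n = 2). The log2 fold change was -2.13 (SE 0.35, 95% interval -2.85 to -1.41), or 4.39-fold more in wild-type libraries.

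TF encodes transferrin, the iron carrier that oligodendrocytes and the choroid plexus supply in the brain, and was counted 1415 and 1200 times in wild-type and 962 and 948 times in mutant libraries. Its groups did not overlap, but the difference was small. The means were 102 ± 6.39 CPM (SD, n = 2) and 71.9 ± 2.19 CPM (SD, n = 2), so the mutant mean was 70.3% of the wild-type mean. The log2 fold change was -0.51 (SE 0.12, 95% interval -0.76 to -0.26), outside the range of -2.35 to -1.40 of the 6 transcripts described before it.

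GPR37 and TSPAN2 did not share the lower counts. GPR37, a receptor of oligodendrocytes that holds back their differentiation and for which prosaposin is a proposed ligand, was counted 340 and 370 times in wild-type and 396 and 319 times in mutant libraries. The highest and the lowest CPM both came from mutant replicates (30.2 and 23.7 CPM), with the wild-type replicates between them at 25.6 and 30.1 CPM. The log2 fold change was -0.05 (SE 0.16, 95% interval -0.38 to 0.28). TSPAN2, a tetraspanin that appears as oligodendrocytes begin to form myelin, was counted 350 and 252 times in wild-type and 264 and 307 times in mutant libraries. Both mutant values lay inside or just under the wild-type range, at 20.2 and 22.8 CPM against 26.4 and 20.5 CPM. The log2 fold change was -0.13 (SE 0.17, 95% interval -0.48 to 0.22).

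**Figure D2:**
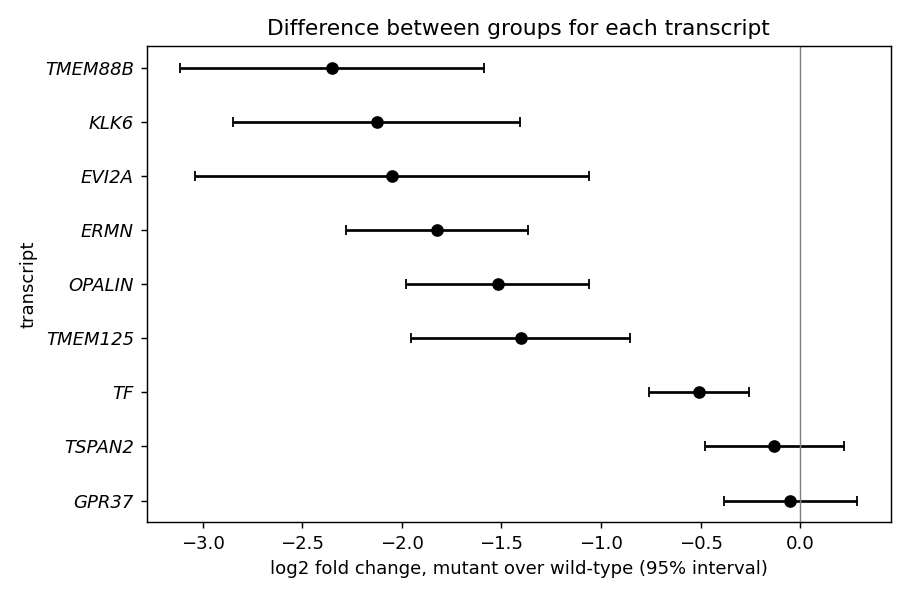
Log2 fold change of each transcript in mutant over wild-type libraries (points) with its 95% interval from the edgeR fit (bars), ordered by size. GPR37, TSPAN2 and TF lie between -0.51 and 0, and the other 6 between -2.35 and -1.40.

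Of the 9 transcripts, 7 had both mutant libraries below both wild-type libraries, as did 21.8% of all genes tested, and 2 had overlapping groups. In the fit across all genes, 7 of 9 were past an adjusted p of 0.05 in the direction lower in mutant, where 1.57% of all genes were called lower and 2.23% were called in either direction. The number was 6 without wild-type replicate 1 (TF was not past it), without wild-type replicate 2 or by DESeq2 (EVI2A was not), and 5 without mutant replicate 1 or 2 (neither was). These counts follow from how the 9 were chosen. The median log2 fold change over the 9 was -1.52, and that over all genes tested was -0.004. Bulk counts cannot tell fewer oligodendrocytes from less RNA in each of them. Summed over the 8 transcripts other than TF, abundance was 108 and 111 CPM in wild-type and 67.9 and 63.6 CPM in mutant libraries. Much of that sum was GPR37 (25.6 and 30.1 against 30.2 and 23.7 CPM) and TSPAN2 (26.4 and 20.5 against 20.2 and 22.8 CPM). It therefore understates the difference of the other 6.

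The replicates of a group were compared for each transcript through the ratio of replicate 1 to replicate 2, with an exact 95% interval that covers counting error alone. For 5 transcripts (TMEM88B, KLK6, EVI2A, TMEM125 and OPALIN) the interval held 1 in both groups. For the other 4 the replicates of at least 1 group differed by more than counting error. GPR37 had ratios of 0.851 (0.733 to 0.989) in wild-type and 1.28 (1.10 to 1.48) in mutant libraries. TSPAN2 had a ratio of 1.29 (1.09 to 1.52) in wild-type libraries, ERMN one of 0.801 (0.663 to 0.967) and TF one of 1.09 (1.01 to 1.18). For GPR37 and TSPAN2 the replicates thus lay further apart than the group means, whose quotients, wild-type over mutant, were 1.03 and 1.09. For ERMN the groups differed by much more, as the lower wild-type library held 3.11 times the CPM of the higher mutant library.

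Leaving out wild-type replicate 1, the library with the most counts of thalamic markers, left the lower transcripts lower. Log2 fold changes were then -2.28 for EVI2A, -2.26 for TMEM88B, -2.18 for KLK6, -1.98 for ERMN, -1.51 for TMEM125, -1.45 for OPALIN and -0.44 for TF. For GPR37 and TSPAN2 the sign depended on the libraries used. TSPAN2 was at 0.07 without wild-type replicate 1 and at -0.30 without wild-type replicate 2. GPR37 was at 0.12 without mutant replicate 2, at 0.07 without wild-type replicate 2 and at -0.24 without mutant replicate 1.

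Within each library the transcripts were set against the summed CPM of 16 classic myelin genes, which was 3854 and 3770 CPM in wild-type and 1563 and 1495 CPM in mutant libraries. The 9 then stood in different positions. TMEM125 was in proportion to the sheath genes, at 2.29 and 2.74 CPM per 1000 CPM of them in wild-type and 2.39 and 2.33 in mutant libraries, with overlapping groups. OPALIN was slightly below proportion in the mutants (3.57 and 3.47 against 4.19 and 3.91). KLK6 and TMEM88B were further below it. KLK6 was at 0.928 and 0.893 in the mutants against 1.53 and 1.68, and TMEM88B at 0.586 and 0.943 against 1.64 and 1.49. ERMN (3.27 and 3.33 against 4.13 and 5.27) and EVI2A (0.440 and 0.496 against 0.646 and 0.929) were also lower in both mutant libraries. GPR37 was at 19.3 and 15.8 in the mutants against 6.66 and 7.99, TSPAN2 at 12.9 and 15.2 against 6.85 and 5.44, and TF at 47.0 and 47.1 against 27.7 and 25.9. GPR37 and TSPAN2 were picked because they were not lower, so their higher ratios follow from that choice and the lower sheath sum. These ratios show unequal differences between the transcripts and the sheath genes and, like the values behind them, were not tested.

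**Figure D3:**
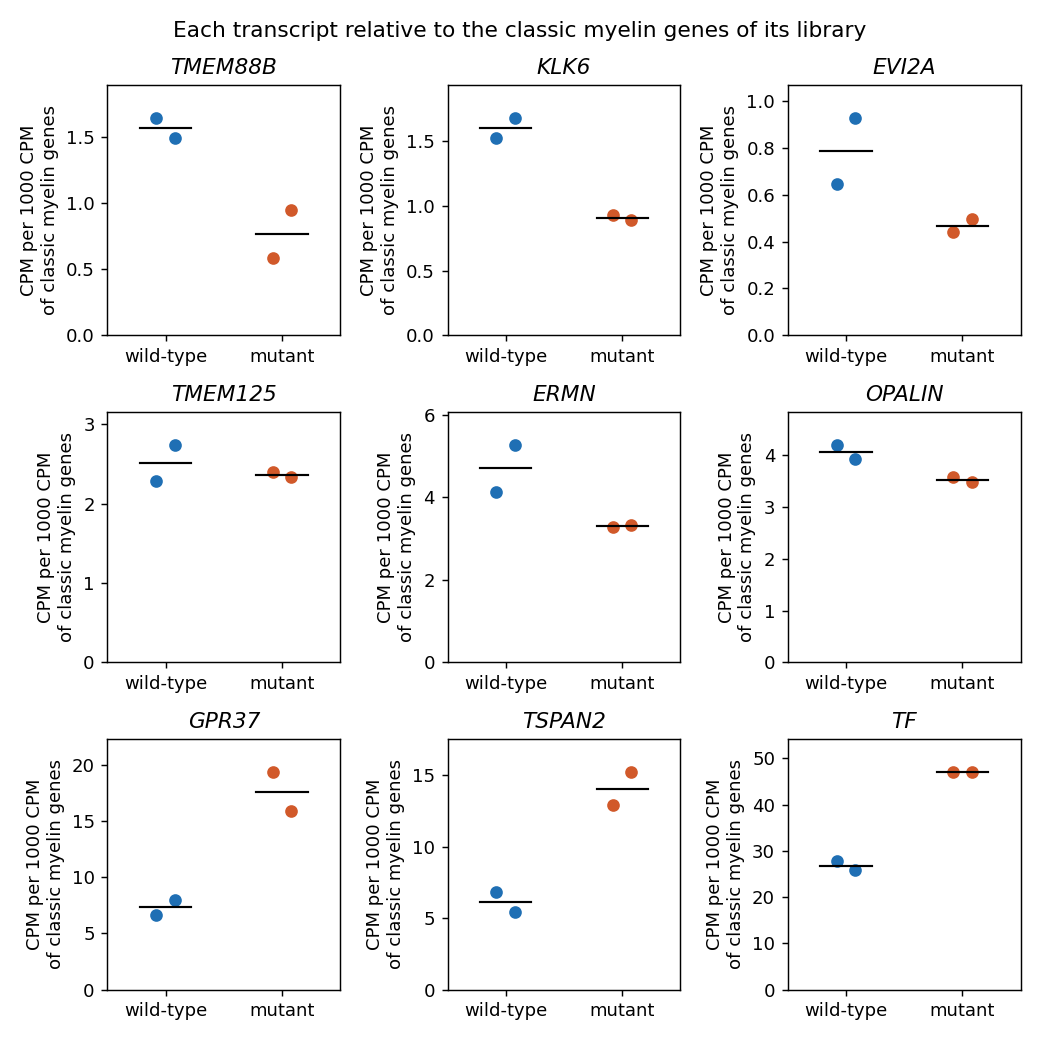
CPM of each transcript per 1000 CPM of the 16 classic myelin genes in the same library (vertical axes from 0), with 2 wild-type (blue) and 2 mutant (orange) libraries and lines at group means. TMEM125 overlaps between groups, GPR37, TSPAN2 and TF are higher in both mutant libraries, and the other 5 are lower in both.

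The rest of the lineage was described with 4 lists of genes that hold none of the 9. Among the 16 classic myelin genes, 11 fell and 0 rose, with a median log2 fold change of -1.24. MBP, which compacts the sheath, fell by 1.58 on the log2 scale (SE 0.11, adjusted p = 1.29e-11), while the gap junction gene GJB1 (-1.87, adjusted p = 0.0979) and the small heat shock gene CRYAB (-0.44, adjusted p = 0.492) did not pass. MAG (-1.54) and MOBP (-1.37) also fell. Among 32 other genes of mature oligodendrocytes with a test, 8 fell and 0 rose (median -0.60). They included GSN, which severs actin filaments (-0.94, SE 0.13, adjusted p = 2.43e-05), PLEKHB1 (-1.08, SE 0.16), ENPP2, which makes lysophosphatidic acid (-0.78, SE 0.14), and LGI3 (-0.77, SE 0.15). The choline transporter SLC44A1 (-0.46, adjusted p = 0.109) and NINJ2 (-1.02, adjusted p = 0.143) did not pass. LGI3 missed the threshold without mutant replicate 2 (adjusted p = 0.0533), and only 4 of the 32 fell when either mutant library was left out.

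The lists of earlier stages had medians nearer to 0, a difference between lists that was not tested. Among 15 genes of committed and newly formed oligodendrocytes, 5 fell and 0 rose (median -0.33). MYRF, the transcription factor that drives myelin gene expression, fell by 0.93 on the log2 scale (SE 0.17, adjusted p = 0.00127), and BCAS1, a marker of cells that are starting to myelinate, by 0.69 (SE 0.12). The lipid hydrolase ENPP6 (-1.11, SE 0.23) and the paranodal adhesion gene NFASC (-0.54, SE 0.12) also fell, whereas the transcription factor NKX2-2 (-0.48, adjusted p = 0.207) and SEMA4D (-0.33, adjusted p = 0.248) did not pass. Without mutant replicate 1, 2 of the 15 fell, and neither ENPP6 (adjusted p = 0.0763) nor NFASC (0.101) passed. ENPP6 also missed the threshold without mutant replicate 2 (0.0545) and NFASC without wild-type replicate 1 (0.0768). Among 17 precursor genes, 1 fell and 0 rose (median -0.13). It was SOX10, a factor of the whole lineage (-0.56, SE 0.14, adjusted p = 0.0161), which did not pass without wild-type replicate 2 (0.0592) or mutant replicate 2 (0.214). PDGFRA (-0.44, adjusted p = 0.0554) and PTPRZ1 (-0.34, adjusted p = 0.126) did not pass. Of the 17 precursor genes, 12 had negative values and 6 an unadjusted p under 0.05. For 8 of them both mutant libraries lay below both wild-type libraries, as for 21.8% of all genes tested. The same held for 12 of the 16 classic myelin genes, 25 of the 32 other mature genes and 10 of the 15 committed genes. Both mutant libraries lay above both wild-type libraries for 0, 1 and 2 genes of these 3 lists. Negative values numbered 13, 27 and 11 in them. TSPAN2 lay at the precursor median and GPR37 above it, and TF lay between the medians of the mature and the committed lists. GPR37 and TSPAN2 were picked because they were not lower, so their place beside the precursor list follows from the choice.

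**Figure D4:**
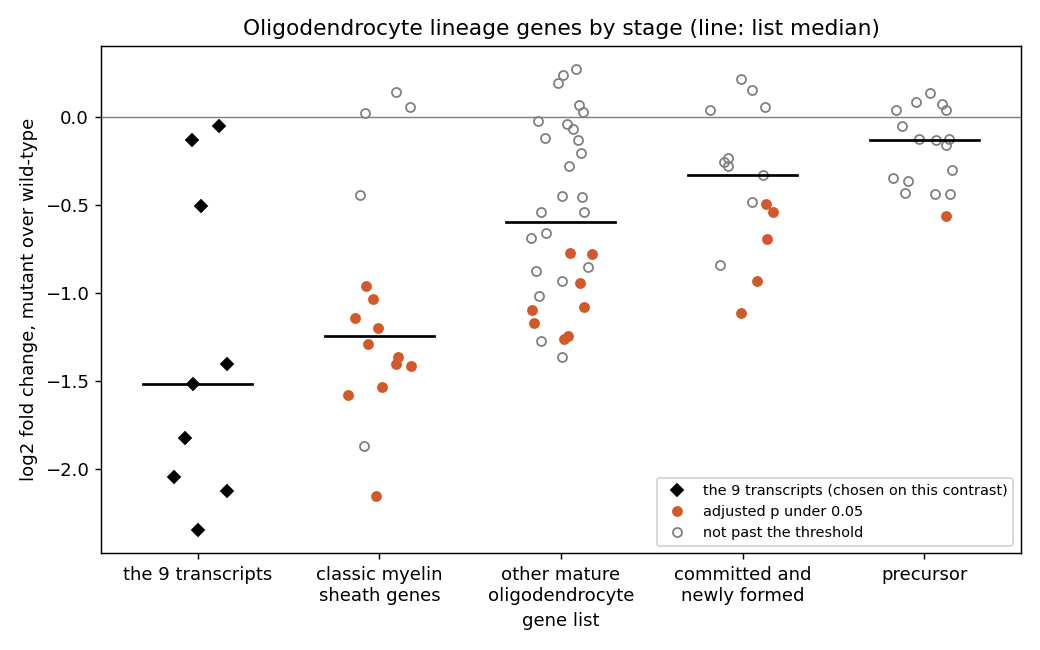
Log2 fold change in mutant over wild-type libraries (vertical axis) of the 9 transcripts (diamonds) and of 4 lists of other lineage genes (circles, filled where the adjusted p was under 0.05), each point 1 gene and each line a list median. Medians run from -1.24 for classic myelin genes to -0.13 for precursor genes.

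EVI2A is one of 3 small genes that lie inside an intron of NF1, the gene of neurofibromin, and in the RefSeq table of assembly calJac240_pri it lies within the span of NF1, next to EVI2B. Its neighbours did not show one common pattern. EVI2B was counted 16 and 19 times in wild-type and 5 and 10 times in mutant libraries (-1.27, SE 0.60, adjusted p = 0.349). OMG, a glycoprotein of oligodendrocytes and neurons that limits neurite growth, was counted 1265 and 1398 times in wild-type and 1431 and 1392 times in mutant libraries (0.02, SE 0.12, adjusted p = 0.968). NF1 was counted 1117 and 1094 times in wild-type and 1028 and 1158 times in mutant libraries (-0.08, SE 0.12, adjusted p = 0.865). The low counts of EVI2A and EVI2B in the mutants thus stood beside level counts of the host gene and of OMG, though none of the 3 neighbours passed by edgeR (1 had an unadjusted p under 0.05, and 0 passed by DESeq2 or voom). Whether counting used strand was not given in the sources used here, so reads of a nested gene and its host may not be fully separated.

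The closest relative of GPR37 had a different pattern. GPR37L1, a receptor of astrocytes and some oligodendrocyte precursors for which prosaposin is likewise a proposed ligand, was counted 1052 and 916 times in wild-type and 664 and 723 times in mutant libraries. It fell by 0.56 on the log2 scale (SE 0.13, adjusted p = 0.0127), but with 1 library left out it passed only without wild-type replicate 2 (adjusted p = 0.0135), with values of 0.0533 to 0.119 in the other fits. Whether the 2 receptors differ in their response was not tested, as GPR37 was picked for its flat counts. PSAP, which encodes prosaposin, was at -0.10 (adjusted p = 0.761). The G protein genes GNAI1, GNAI2 and GNAI3 were at 0.07, 0.05 and 0.28 (adjusted p = 0.886, 0.917 and 0.289). GPR37L1 was the 1 gene of these 5 that passed.

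Among 21 other tetraspanins tested, 1 fell and 0 rose, with a median of -0.12 beside the -0.13 of TSPAN2. The exception was TSPAN15, a partner of the sheddase ADAM10, which was counted 130 and 103 times in wild-type and 45 and 55 times in mutant libraries. It fell by 1.27 on the log2 scale (SE 0.27, adjusted p = 0.00575), but lost its call without mutant replicate 1 (adjusted p = 0.112). TSPAN2 thus lay near the middle of its family, as a description of values on the log2 scale. It was picked because it was not lower, so this place follows from the choice.

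**Figure D5:**
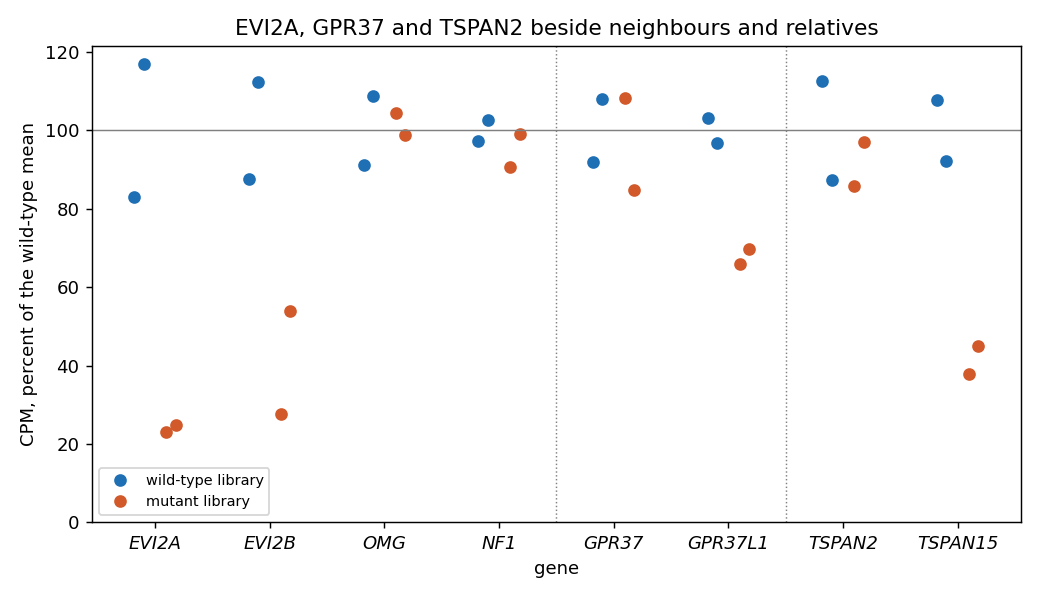
CPM of EVI2A, GPR37 and TSPAN2 beside their neighbours or relatives, as a percent of each gene's wild-type mean (vertical axis from 0), with 2 wild-type (blue) and 2 mutant (orange) libraries per gene. EVI2A, EVI2B, GPR37L1 and TSPAN15 are lower in both mutant libraries, and OMG, NF1, GPR37 and TSPAN2 overlap between groups.

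KLK6 lies between KLK5 and KLK7 in the same gene table. KLK5 was counted 45 times in each wild-type library and 36 and 26 times in the mutants (-0.59, SE 0.37, adjusted p = 0.524), and KLK7 at most 5 times in any library. Of 5 tested genes among other kallikreins and protease-activated receptors (KLK5, KLK8, KLK11, F2R and F2RL2), none passed by edgeR, DESeq2 or voom. All 5 had negative values (median -0.59), and 3 had an unadjusted p under 0.05. For all 5 both mutant libraries lay below both wild-type libraries, as for 21.8% of all genes tested. No inhibitor of these proteases was tested. The smallest p was that of F2RL2, a protease-activated receptor, at -0.72 (adjusted p = 0.172). No relative of TMEM88B or ERMN passed. TMEM88 was at 0.24 (adjusted p = 0.791), and DVL1, DVL2 and DVL3, which encode Dishevelled proteins, at -0.02, 0.20 and -0.04 (adjusted p = 0.973, 0.680 and 0.933). None of these 4 had an unadjusted p under 0.05 or passed by edgeR, DESeq2 or voom. The genes of ezrin, radixin, moesin and merlin, which link actin to the membrane, were at -0.06 (EZR), 0.14 (RDX), -0.34 (MSN) and 0.03 (NF2). None of them passed by edgeR, DESeq2 or voom, and MSN had an unadjusted p under 0.05 (adjusted p = 0.245). The groups did not overlap for MSN (mutant lower) and RDX (mutant higher). Of the 16956 genes tested, 3690 were lower and 3622 higher in this way.

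The lower TF counts were not accompanied by called changes in other genes of iron handling. Of 13 tested, none passed by edgeR, DESeq2 or voom, and the 1 with an unadjusted p under 0.05 was HAMP, the gene of the iron hormone hepcidin, at 6 and 9 against 17 and 20 counts (1.23, SE 0.59, adjusted p = 0.358). The list median was -0.05. The transferrin receptor gene TFRC (-0.29, adjusted p = 0.688) and the ferritin heavy chain gene FTH1 (0.06, adjusted p = 0.887), both singled out after their values were seen, did not pass. Markers of choroid plexus, another source of transferrin, did not share one order of the libraries. The 10 markers summed to 53.1 and 44.9 CPM in wild-type and 147 and 39.8 CPM in mutant libraries. Most of the sum in mutant replicate 1 was TTR, counted 8 and 89 times in wild-type and 1244 and 87 times in mutant libraries. CLIC6 (13 and 24 against 57 and 19 counts) and KCNJ13 (24 and 20 against 43 and 11) were also highest there. OTX2 (78 and 5 against 23 and 0) and FOLR1 (71 and 44 against 40 and 32) were highest in wild-type replicate 1. SOSTDC1 was counted 235 times in each of these 2 libraries. TF was at 73.4 CPM in mutant replicate 1 and at 70.3 CPM in mutant replicate 2, and without mutant replicate 1 its log2 fold change was -0.54 and not past the threshold. The part of choroid plexus RNA in the TF values was not tested.

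Markers of some other cell types were lower in the mutant libraries as well. Of 17 astrocyte markers, 3 fell and 0 rose (median -0.31), namely SLC1A2 (-0.61), CLU (-0.51) and GPR37L1. All 17 had negative values, and 10 had an unadjusted p under 0.05. For 14 of them both mutant libraries lay below both wild-type libraries, as for 21.8% of all genes tested. The sum of the 17 was 7492 and 7554 CPM in wild-type and 5725 and 5979 CPM in mutant libraries. Of 14 microglial markers, 3 fell and 0 rose (median -0.48), with sums of 213 and 229 CPM against 178 and 121 CPM. None of these 3 passed without mutant replicate 2 (adjusted p between 0.126 and 0.289). The summed neuron markers were level, at 10370 and 10322 CPM against 10544 and 10314 CPM. That sum held STMN2, which was higher in both mutant libraries, at 2560 and 2232 CPM against 3059 and 2902 CPM. Of the 11 neuron markers tested, 8 had negative and 3 positive values (median -0.06), and 2 had an unadjusted p under 0.05. For 4 of them both mutant libraries lay below both wild-type libraries, as for 21.8% of all genes tested. Of the 11, 1 fell and 0 rose. It was the neurofilament gene NEFL, which passed without wild-type replicate 2 but not when another library was left out (adjusted p of 0.0746 to 0.335). None of 12 vascular markers passed by edgeR, DESeq2 or voom (2 had an unadjusted p under 0.05, median -0.19). The part of these markers in the values of the 9 transcripts was not tested.

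The genes most like each transcript were sought among 13643 other genes with a symbol and at least 1 CPM, by the Euclidean distance between log2 CPM profiles centred over the 4 libraries. The 6 strongly lower transcripts mostly had sheath genes as nearest neighbours. MOBP was nearest to TMEM125 (distance 0.062), MAG to OPALIN (0.13), and MAL, a small myelin proteolipid, to KLK6 (0.17), EVI2A (0.28) and TMEM88B (0.47). At a prior count of 0.5, SULT2B1, a sterol sulfotransferase counted 22 and 21 against 5 and 5 times, was nearer to KLK6 than MAL (0.089 and 0.17). ERMN was nearest to SULT2B1 (0.20) and then to MBP (0.29), an order that turned at that prior count (0.31 and 0.30). The profiles of the other 3 were closest to genes outside the lists, ECT2 for TF (0.037), TOLLIP for GPR37 (0.028) and PTBP3 for TSPAN2 (0.0078). Among the 9 themselves, EVI2A and ERMN were the closest pair (0.15) and TMEM88B and GPR37 the most distant (2.30). With 4 libraries these distances describe the profiles and carry no test.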

How the data were processed

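The authors deposited whole-number counts per gene without normalization. Trimmomatic 0.38 and STAR 2.7.10a are named, per the submitters' processing notes. The counter, the genome build and the strand choice were not given in the sources used here. Libraries were poly(A)-selected and made with a directional kit, per the labels' protocols.

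The count analysis used edgeR 4.0.16 under R 4.3.3: filterByExpr at a minimum count of 10 (16956 genes kept), TMM scaling and the quasi-likelihood test (robust = TRUE), with p-values adjusted by Benjamini-Hochberg over all of them and a threshold of 0.05. Every adjusted p is from this test unless another tool is named. The SE is the log2 fold change divided by the square root of F. CPM used TMM-scaled library sizes, and log2 CPM profiles a prior count of 2. Alternatives were RLE and upper quartile scaling, other filters, DESeq2 1.42.0, limma-voom (limma 3.58.1), robust = FALSE, each library left out, a block for the replicate number, and an adjusted p of 0.1. With 1 library left out, the lone library of its group was assumed to vary like the others. On simulated counts for 16956 genes, 26.8% of genes given a log2 change of 0.5 were found, 74.7% at 1 and 87.0% at 2. There were 9 false calls among 131. Genes with small differences that did not pass may thus have been missed.

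Replicates differed by more than sampling noise (chi-square per degree of freedom 7.28 in wild-type and 6.90 in mutant libraries), so each counted once. The 9 transcripts and all gene lists were chosen with earlier results of these data known. Named genes are the 9, per lineage list up to 4 passing and 2 not passing by smallest p, per other list up to 3 passing or the 1 of smallest p, all genes of lists of up to 6, the 2 genes most like each of the 9 (in the text the nearest, and the second where it adds a gene of the sheath), and genes beside them in the genome. Some genes taken by this rule are not reported here. Of the microglia list no gene is named. Gene order came from the RefSeq table of assembly calJac240_pri, which holds 8 of the 9 symbols. It gave names alone.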

Additional observations from a re-analysis of the deposited data

How the results depend on the processing

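In the 12 alternatives run for the 9 transcripts, 7 had a negative log2 fold change throughout, and GPR37 and TSPAN2 changed sign when single libraries were left out. With 1 library left out, the value ran from -2.69 to -2.08 for TMEM88B and from -2.28 to -1.78 for EVI2A. Over all genes, 378 changed. The count was 633 without a low-count filter, 244 by DESeq2, 624 at an adjusted p of 0.1, and 163 (without mutant replicate 1) to 562 (without wild-type replicate 2) with 1 library left out. The replicate numbers did not pair the samples (correlation of deviations 0.03), and with the replicate block 493 genes changed. The 1 precursor gene became 2 without a filter, with a mean of at least 1 CPM, with the block and at an adjusted p of 0.1, and 0 to 1 with 1 library left out. The other mature genes then numbered 4 to 8 and the committed genes 2 to 4. The classic myelin count stayed within 1.5 times of 11 in each setting. The cause of these shifts was not tested. Levels per transcript length were not run, since no transcript lengths were used. At a prior count of 0.5 the 18 nearest genes were the same pairs, but the order of the 2 changed for KLK6 and ERMN. Depth limits EVI2A most, at 9 and 10 counts in the mutants.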
